A study of Mus musculus with 12 samples.

Results

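The genes described here are the IL-10 and IL-20 family ligands and receptors of mouse skin, which are Il10, Il19, Il20, Il24, Il10ra, Il10rb, Il20ra, Il20rb and Il22ra1. They were taken by symbol, and all 9 had a row among the 18505 genes of the deposited expression table. Of the 9, 8 had a mean of at least 0.1 FPKM over the 12 samples and were tested, and Il24 did not.

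The study asked how an herbal preparation put on psoriasis-like skin changes its transcripts. Back skin of wild-type male BALB/c mice, 5 to 6 weeks old, was sequenced as bulk RNA on day 10, with 4 samples in each of 3 groups. The control group received petroleum jelly. The IMQ + NS group received imiquimod (IMQ) cream, a Toll-like receptor 7 agonist that raises psoriasis-like plaques on mouse skin, for 6 h, and then normal saline (NS) under gauze and film. The IMQ + BZLF group received the same cream and then Banzhilian formula (BZLF), a mixture of traditional Chinese medicinal materials, in place of the saline. Both cream groups therefore carried imiquimod, gauze and film, and a group with BZLF on normal skin was not analysed here. By the study's methods, every treatment was repeated once a day for 10 days. The dose of BZLF on the sequenced samples is not given in the sources used here. The labels do not say whether the 4 samples of a group came from separate mice, so the p-values measure the spread between these samples, which may be technical in part.

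IL-10 family cytokines are secreted proteins that act through receptors made of a longer, ligand-specific chain and a shorter, shared chain. IL-10 binds IL-10Rα, found mainly on leukocytes, together with IL-10Rβ, and restrains myeloid cells and T cells. IL-19, IL-20 and IL-24 form the IL-20 subfamily and act mostly on epithelia. All of them can bind a receptor of IL-20Rα and IL-20Rβ, and IL-20 and IL-24 also bind one of IL-22Rα1 and IL-20Rβ. IL-22 uses IL-22Rα1 with IL-10Rβ. The receptors signal through JAK kinases and chiefly through the transcription factor STAT3. In keratinocytes, IL-20 subfamily cytokines and IL-22 are known to raise antimicrobial peptides and hyperproliferation keratins and to lower some genes of terminal differentiation.

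The 4 ligand genes lie side by side on chromosome 1 of GRCm38, in the order Il24 (chr1:130882074-130887411), Il20 (chr1:130906985-130911296), Il19 (chr1:130932656-130945457) and Il10 (chr1:131019845-131024970), and together span 142.897 kb. Il24 and Il20 are separated by 19.573 kb, Il20 and Il19 by 21.359 kb, and Il19 and Il10 by 74.387 kb. The receptor genes are apart from them and mostly from each other, Il10ra at chr9:45253837-45269149, Il20rb at chr9:100457719-100486473, Il10rb at chr16:91406157-91425834, Il20ra at chr10:19711673-19760053 and Il22ra1 at chr4:135728159-135755383.

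Promoter windows were found in the RefSeq table for 5 of the 9 genes, Il19, Il20, Il20ra, Il20rb and Il22ra1. Those of Il19 and Il20, neighbouring ligand genes with different values in these samples, and of Il20ra are printed because the results turn on these genes. Each runs 5′ to 3′ along the gene's own strand, from 250 bases before to 50 bases after a start annotated by RefSeq on GRCm38, which for Il19 and Il20ra lies inside the annotated span of the gene. Capitals mark matches to the motifs searched. The windows are chr1:130940066-130940365 on the minus strand for Il19, chr1:130911247-130911546 on the minus strand for Il20 and chr10:19712337-19712636 on the plus strand for Il20ra.
Il19: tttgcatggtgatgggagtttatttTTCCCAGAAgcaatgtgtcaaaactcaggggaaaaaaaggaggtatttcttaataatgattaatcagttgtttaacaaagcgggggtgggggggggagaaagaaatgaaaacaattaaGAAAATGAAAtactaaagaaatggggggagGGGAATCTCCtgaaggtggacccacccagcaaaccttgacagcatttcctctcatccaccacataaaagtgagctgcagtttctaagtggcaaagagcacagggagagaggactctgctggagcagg
Il20: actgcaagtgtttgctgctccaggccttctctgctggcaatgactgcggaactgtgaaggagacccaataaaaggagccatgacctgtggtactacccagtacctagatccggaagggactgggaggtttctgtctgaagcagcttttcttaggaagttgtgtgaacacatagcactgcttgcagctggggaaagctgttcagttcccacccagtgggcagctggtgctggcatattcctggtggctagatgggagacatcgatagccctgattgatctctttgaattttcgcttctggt
Il20ra: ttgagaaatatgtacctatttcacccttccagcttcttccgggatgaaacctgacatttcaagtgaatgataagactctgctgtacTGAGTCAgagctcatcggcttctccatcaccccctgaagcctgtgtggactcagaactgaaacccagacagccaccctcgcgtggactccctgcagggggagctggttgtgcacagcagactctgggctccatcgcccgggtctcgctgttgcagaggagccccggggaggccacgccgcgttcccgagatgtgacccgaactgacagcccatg

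The windows were searched on both strands for 5 motifs, and the share of all 32851 RefSeq windows of the same length that hold each was counted. These were a STAT motif (TTCNNNGAA, in 8.298% of windows), an AP-1 motif (TGANTCA, 7.808%), an NF-kappa B motif (8.459%), an interferon-response motif (the ISRE core, 3.443%) and a C/EBP motif (TTGCNNAA, 10.8%). The C/EBP motif was added after the matches of the other motifs had been seen. The Il19 window held a STAT match whose first base lies at -225 from the start, an interferon-response match at -107 and an NF-kappa B match at -77. The Il20 window held none of the motifs, and the Il20ra window held 1 AP-1 match, at -164. Of the windows not printed, Il20rb held a C/EBP match at -78, and Il22ra1 held an AP-1 match at -222 and an NF-kappa B match at -156. No matches overlapped. A match describes letters only, and binding was not measured.

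Some samples held transcripts of tissues foreign to back skin, and in control and IMQ + BZLF skin their levels went with the replicate number. The 4 seminal vesicle markers summed to 36.6 FPKM in control replicate 2 and 36.3 in IMQ + BZLF replicate 2, and to 0.0441 or less in every other sample. Pancreas markers summed to 82.4, 101.6, 91.4 and 8.64 FPKM in control replicates 1 to 4, to 77.7, 94.5, 86.0 and 7.94 in those of IMQ + BZLF and to 19.4, 18.9, 92.7 and 1.92 in those of IMQ + NS. No marker of either tissue was called between groups. What the same-numbered samples of the groups share is not given in the labels, and its part in the values of the members was not tested beyond the fits with a replicate block and with samples left out.

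Expression was deposited as FPKM, fragments scaled by transcript length and by the mapped fragments of the library, so levels of different genes can be set side by side per length. The receptor chains were the most abundant members. In control skin the mean level was 21.2 FPKM ± 7.58 (SD, n = 4) for Il20rb, 18.6 ± 2.07 for Il10rb, 6.30 ± 1.55 for Il10ra, 4.45 ± 1.38 for Il22ra1 and 2.78 ± 0.65 for Il20ra, followed by Il10, Il20, Il19 and Il24, all under 1 FPKM. Il20rb overlapped Il10rb in its sample range, Il10ra overlapped Il22ra1, Il22ra1 overlapped Il20ra, Il10 overlapped Il20, and Il19 overlapped Il24, whereas the other neighbours in that order did not overlap. In IMQ + NS skin Il10rb came first and Il19 rose to the fifth place, above Il20ra, with no overlap between Il19 and either neighbour. In IMQ + BZLF skin Il20ra was again the fifth and Il19 the seventh, and Il10, Il19 and Il20 each overlapped the next in the order, with Il24 last.

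**Figure D1:**
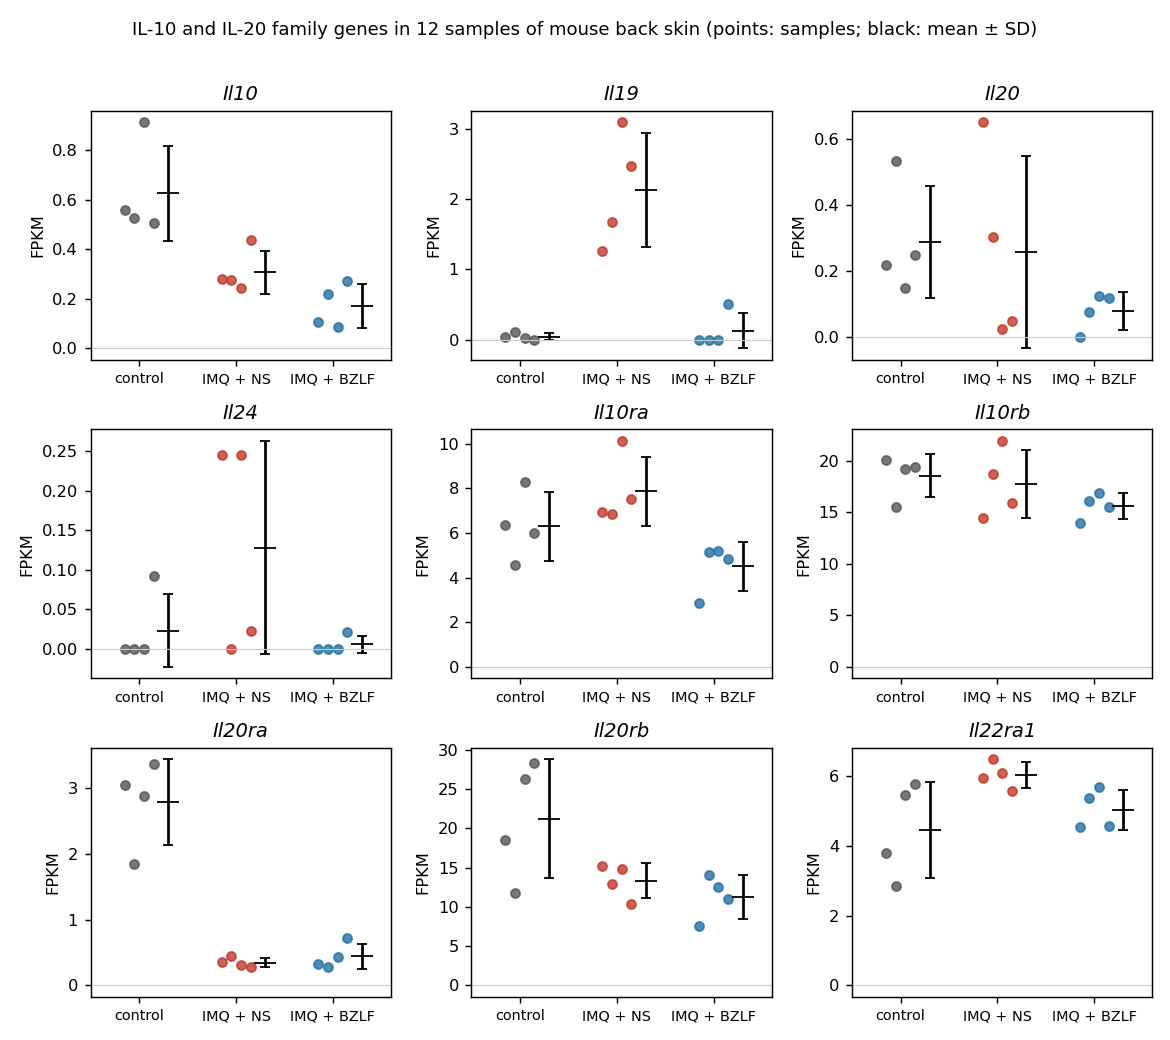
FPKM of the 9 genes (vertical axes, each with its own linear scale) in control, IMQ + NS and IMQ + BZLF skin, where points are samples and black bars the mean ± SD of 4. Il19 lies between 1.27 and 3.10 FPKM in IMQ + NS skin and at 0.105 or less in control skin, and Il20ra lies at 1.85 or more in control skin and at 0.717 or less in both cream groups.

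Comparisons were made between each pair of groups, on log2(FPKM + 0.1) with limma, and a gene was called at a Benjamini-Hochberg adjusted p under 0.05 over all 15288 tested genes and a log2 fold change beyond 1. In IMQ + NS against control, 1 of the 8 tested members was called higher (Il19) and 1 lower (Il20ra), where 11.4% of all tested genes were called higher and 11.0% lower. Between IMQ + BZLF and IMQ + NS, none was called higher and 1 lower (Il19), where 0.321% of all tested genes were called higher and 2.20% lower. Between IMQ + BZLF and control, none was called higher and 3 lower (Il10, Il20 and Il20ra), against 9.65% higher and 10.1% lower among all genes. The median log2 fold change of the 8 members in these comparisons was -0.24, -0.44 and -0.67, and that of all tested genes 0.05, -0.02 and -0.02. Each pair of comparisons shares a group of samples, so their values for a gene are not independent of each other.

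**Figure D2:**
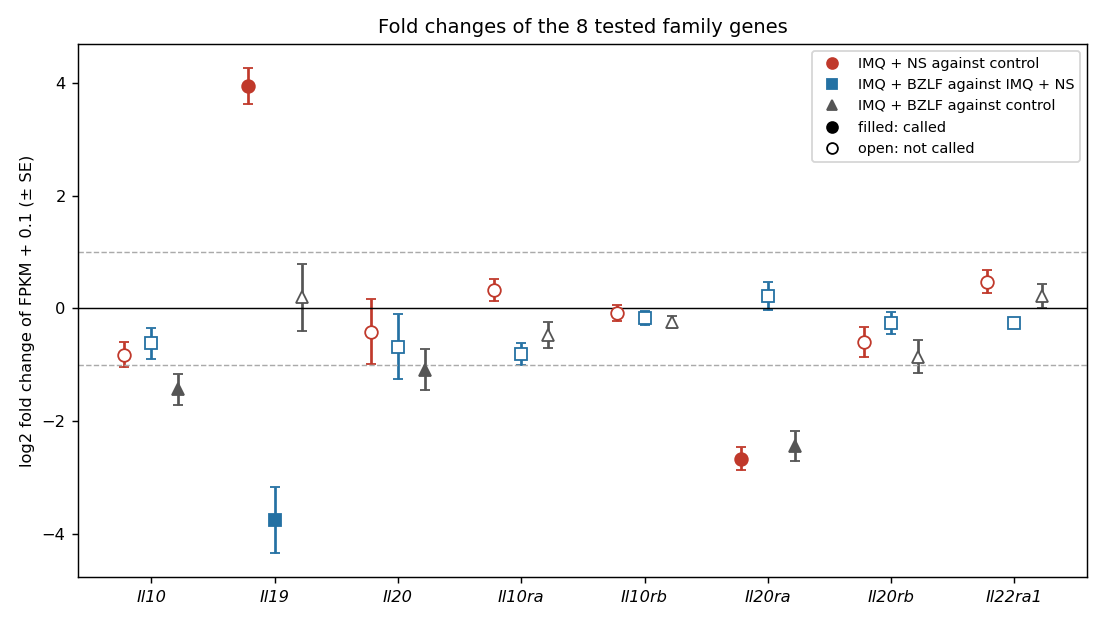
Log2 fold change of FPKM + 0.1 (vertical axis, ± SE) of the 8 tested genes in the 3 comparisons, with filled symbols for called genes and dashed lines at the fold limit. Il19 lies at 3.95 in IMQ + NS against control and at -3.75 in IMQ + BZLF against IMQ + NS, while Il20ra lies at -2.67 and 0.22.

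Among the ligands, Il19, whose product acts through IL-20Rα and IL-20Rβ, was called in both comparisons with IMQ + NS skin. Its FPKM was 0.0419, 0.105, 0.0214 and 0 in control skin, 1.27, 1.68, 3.10 and 2.48 in IMQ + NS skin, and 0, 0, 0 and 0.511 in IMQ + BZLF skin. All IMQ + NS samples lay above every other sample, and 3 of the 4 IMQ + BZLF samples were listed at 0. Il19 rose in IMQ + NS against control by a log2 fold change of 3.95 (SE 0.32, limma adjusted p = 2.65e-05) and fell in IMQ + BZLF against IMQ + NS by 3.75 on the log2 scale (SE 0.59, adjusted p = 0.00904). An exact two-sided permutation test gave p = 0.0286 for each, the smallest that 4 samples against 4 can give. Between BZLF-treated and control skin, the log2 fold change was 0.20 (SE 0.60, adjusted p = 0.797), and the groups overlapped. Because most values outside IMQ + NS skin are near 0, the size of the change rests on the constant added before the logarithm. With constants of 0.01 and 1 and the other settings tried, the rise ranged from 1.55 to 5.78 on the log2 scale. The change after BZLF ranged from -6.24 to -1.46, and both kept their calls in all 20 settings in which Il19 was tested. Il19 passed the limit of 0.1 FPKM mainly through its IMQ + NS samples. Its mean was 2.13 FPKM there, 0.0420 in control skin and 0.128 in IMQ + BZLF skin. These calls are therefore not independent of that selection, although the settings included a fit without the limit.

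Markers of hyperproliferative keratinocytes (Krt6a, Krt6b and Krt16) and of neutrophils moved with Il19. The summed FPKM of the former was 11.99 to 27.2 in control, 900 to 2286 in IMQ + NS and 104 to 212 in IMQ + BZLF skin, and all 3 genes were called in both comparisons. The neutrophil sum over 7 markers was 31.9 to 50.6, 3128 to 9892 and 62.7 to 83.6 FPKM, and all 7 were called in both comparisons. Of that sum, S100a8 and S100a9, which are also counted below among keratinocyte targets, made up 80.9%, 99.4% and 93.2%, and the other 5 markers summed to 5.83 to 8.88 FPKM in control skin, 22.9 to 61.2 with saline and 3.53 to 6.01 with BZLF. B cell markers, 5 in all, summed to 0.896 to 2.33, 3.54 to 5.51 and 1.12 to 2.59 FPKM. IMQ + BZLF replicate 4, the only sample of its group with Il19 above 0, also had the highest sum of that group for the hyperproliferative keratinocyte and neutrophil lists. The part of these cell types in the Il19 result was not tested, and in bulk skin fewer cells of a type cannot be told apart from less RNA per cell.

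Il20, the neighbour of Il19 and the ligand of both receptor types with IL-20Rβ, was not called with it. Its FPKM was 0.218, 0.534, 0.149 and 0.250 in control skin, 0.651, 0.304, 0.0241 and 0.0484 in IMQ + NS skin, and 0, 0.0757, 0.123 and 0.118 in IMQ + BZLF skin. The IMQ + NS samples overlapped both other groups, and each IMQ + BZLF sample lay below each control sample. The log2 fold change was -0.41 (SE 0.58, adjusted p = 0.566) in IMQ + NS against control and -0.68 (SE 0.57, adjusted p = 0.528) between the cream groups. Il20 was called lower in IMQ + BZLF against control, at -1.09 (SE 0.36, limma adjusted p = 0.0325, exact permutation p = 0.0286). That call was lost in 9 of the 21 other settings, among them leaving out control replicate 1, 2 or 4 or IMQ + BZLF replicate 1 or 2, with adjusted p up to 0.0774 in those 5 fits.

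Il24, whose product shares the receptors of IL-20, had the lowest mean in each group. It was listed at 0, 0, 0 and 0.0923 FPKM in control skin, at 0.245, 0, 0.245 and 0.0223 in IMQ + NS skin, and at 0, 0, 0 and 0.0219 in IMQ + BZLF skin. Both highest values were in IMQ + NS skin, and the groups overlapped in every comparison. The exact permutation p was 0.257, 0.143 and 1.0 in IMQ + NS against control, IMQ + BZLF against IMQ + NS and IMQ + BZLF against control. A change of Il24 was not detectable at these levels.

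Il10, which encodes the regulatory cytokine of the family, had its highest values in control skin. Its FPKM was 0.560, 0.525, 0.912 and 0.505 in control skin, 0.278, 0.274, 0.244 and 0.436 in IMQ + NS skin, and 0.108, 0.219, 0.0887 and 0.273 in IMQ + BZLF skin. Every control sample lay above every cream-treated sample, whereas the 2 cream groups overlapped. Il10 fell in IMQ + BZLF against control by 1.44 on the log2 scale (SE 0.28, limma adjusted p = 0.00305). Its log2 fold change of -0.82 (SE 0.23) in IMQ + NS against control had an adjusted p = 0.0147 but was under the fold limit, and that between the cream groups was -0.62 (adjusted p = 0.211). The summed FPKM of 10 macrophage and monocyte markers, from cells that can make IL-10, was 1840 to 2638 in control, 1159 to 1758 in IMQ + NS and 772 to 1211 in IMQ + BZLF skin. Much of that sum was Lyz2, which averaged 1091, 668 and 514 FPKM in these groups. Against control, none of the 10 was called higher, and 1 was called lower in IMQ + NS and 5 in IMQ + BZLF skin. Adgre1 went the other way in IMQ + NS skin, averaging 28.6 FPKM in control, 46.0 with saline and 18.1 with BZLF. The part of these cells in the Il10 values was not tested.

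**Figure D3:**
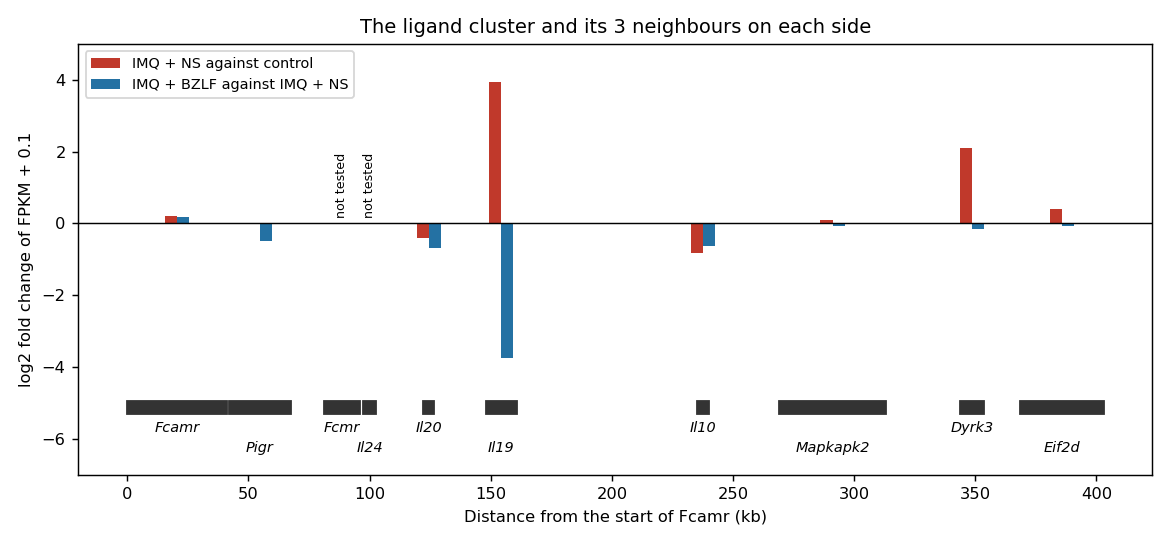
Log2 fold change of FPKM + 0.1 (vertical axis) along the ligand cluster and the 3 nearest protein-coding genes with a row on each side, placed by distance in kb from the start of Fcamr (dark boxes: genes). Il19 stands at 3.95 in IMQ + NS against control and -3.75 in IMQ + BZLF against IMQ + NS, Il20 and Il10 lie between 0 and -1 in both, and Il24 and Fcmr were not tested.

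Around the ligands, Fcamr, Pigr, Mapkapk2 and Eif2d were called in no comparison, and Fcmr was under the expression limit. Fcmr, next to Il24, also had its highest mean in IMQ + NS skin. It averaged 0.0212 FPKM in control skin, 0.221 with saline and 0.0418 with BZLF, and the IMQ + NS samples overlapped both other groups. Dyrk3, which encodes a kinase and lies beyond Il10 and Mapkapk2, was called higher in IMQ + NS against control (log2 fold change 2.10, limma adjusted p = 0.0144) and in IMQ + BZLF against control (1.95, adjusted p = 0.0228). Between the cream groups its log2 fold change was -0.15 (adjusted p = 0.597).

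Of the receptor chains, Il20ra, the ligand-specific chain through which IL-19 acts, was the only one called. Its FPKM was 3.05, 1.85, 2.88 and 3.36 in control skin, 0.353, 0.443, 0.310 and 0.284 in IMQ + NS skin, and 0.330, 0.288, 0.429 and 0.717 in IMQ + BZLF skin. Every control sample lay above every sample of both cream groups, which overlapped each other. The control mean was 8.02 times the IMQ + NS mean (log2 fold change -2.67, SE 0.21, limma adjusted p = 2.19e-05) and 6.31 times the IMQ + BZLF mean (-2.44, SE 0.27, adjusted p = 2.30e-04), with an exact permutation p = 0.0286 for each. Between the cream groups the log2 fold change was 0.22 (SE 0.25, adjusted p = 0.639). The calls against control were kept in all settings tried.

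Markers of other skin compartments also differed between control and cream-treated skin. The summed FPKM of 5 skeletal muscle markers was 3212 to 8017 in control, 609 to 1435 in IMQ + NS and 1043 to 1427 in IMQ + BZLF skin, with all 5 called lower against control in both cream groups. That of 5 fibroblast markers was 9005 to 13269, 2127 to 3023 and 2913 to 5556, with 4 of 5 called lower against control in both. Most of it was Col1a1 and Col1a2, which averaged 4548 and 5592 FPKM in control skin. Pdgfra averaged 16.0, 15.3 and 14.5 FPKM in the 3 groups. Its log2 fold change was -0.06 (limma adjusted p = 0.683) in IMQ + NS against control. The summed FPKM of 7 hair shaft and inner root sheath markers was 18.8 to 1362, 8670 to 11497 and 10727 to 15755, with all 7 called higher. The sum of 5 adipocyte markers was 2075 to 4173 FPKM in control skin, 1237 to 1795 with saline and 1652 to 1867 with BZLF, with 3 of 5 called lower against control in both. Control replicate 2, the control sample with the lowest Il20ra, also had the lowest muscle sum and the highest hair sum of its group. The part of tissue composition in the Il20ra values was not tested.

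Il20rb, the chain shared by both IL-20 receptor types, had 18.5, 11.8, 26.3 and 28.3 FPKM in control skin, 15.3, 12.9, 14.8 and 10.3 in IMQ + NS skin, and 7.59, 14.1, 12.6 and 10.97 in IMQ + BZLF skin. Control replicate 2 lay among the treated samples, so the groups overlapped. The log2 fold change was -0.60 (adjusted p = 0.0841) in IMQ + NS against control and -0.26 (adjusted p = 0.474) between the cream groups. Against control, IMQ + BZLF skin gave -0.86 (SE 0.29, limma adjusted p = 0.0358), under the fold limit, and without control replicate 2 it was -1.11 and called.

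Il22ra1, the chain used by IL-20, IL-24 and IL-22, had 3.78, 2.85, 5.44 and 5.74 FPKM in control skin, 5.94, 6.47, 6.07 and 5.57 in IMQ + NS skin, and 4.54, 5.35, 5.66 and 4.56 in IMQ + BZLF skin. The groups overlapped in every comparison. Its log2 fold change was 0.48 (adjusted p = 0.0820), -0.26 (adjusted p = 0.140) and 0.22 (adjusted p = 0.421) in IMQ + NS against control, IMQ + BZLF against IMQ + NS and IMQ + BZLF against control.

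The balance of the epithelial chains was then described by ratios of their FPKM, which were chosen after the values had been seen and are given with no test. The ratio of Il20ra to Il22ra1 was 0.530 to 0.807 in control, 0.0510 to 0.0685 in IMQ + NS and 0.0538 to 0.158 in IMQ + BZLF skin. The ratio of Il22ra1 to Il20rb was 0.203 to 0.241 in control, 0.389 to 0.538 in IMQ + NS and 0.379 to 0.598 in IMQ + BZLF skin. For both ratios the control samples stood apart from all cream-treated samples, and the cream groups overlapped.

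Il10ra, the chain that binds IL-10 on leukocytes, had 6.36, 4.55, 8.30 and 6.002 FPKM in control skin, 6.94, 6.86, 10.1 and 7.54 in IMQ + NS skin, and 2.89, 5.15, 5.18 and 4.85 in IMQ + BZLF skin. Each IMQ + BZLF sample lay below each IMQ + NS sample. The log2 fold change between these groups was -0.81 (SE 0.20, limma adjusted p = 0.0469, exact permutation p = 0.0286), which passed the adjusted p but not the fold limit. With each sample left out in turn, that adjusted p ranged from 0.0348 to 0.125. It was 0.33 (adjusted p = 0.177) in IMQ + NS against control and -0.48 (adjusted p = 0.113) in IMQ + BZLF against control. The sum of 4 pan-leukocyte markers was 142 to 176 FPKM in control skin, 157 to 223 with saline and 55.8 to 102 with BZLF, with 3 of the 4 called lower after BZLF. IMQ + BZLF replicate 1 was lowest both for Il10ra and for that sum, and the part of leukocyte number in the Il10ra values was not tested.

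Il10rb, the shared chain of the IL-10 and IL-22 receptors, was called in no comparison. Its FPKM ranged from 15.5 to 20.1 in control, 14.5 to 21.96 in IMQ + NS and 13.9 to 16.9 in IMQ + BZLF skin. The groups overlapped in every comparison, and its log2 fold change was -0.07, -0.17 and -0.25 (adjusted p = 0.680, 0.456 and 0.0787).

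Other ligands and receptors of the wider class II cytokine family were listed as relatives. Of 11 listed genes 9 had a row and 7 were tested, and Ifnl2 and Ifnl3 were not analysed here. None was called higher in any comparison. In IMQ + NS against control 2 of the 7 were called lower, Il22ra2 and F3, and in IMQ + BZLF against control 1, Il22ra2. Among all tested genes, 11.0% and 10.1% were called lower in these comparisons. Il22ra2, which encodes a soluble protein that binds IL-22 and was named after its values had been seen, fell from 1.18, 0.638, 2.65 and 2.67 FPKM in control skin to 0.222, 0.307, 0.363 and 0.0808 in IMQ + NS skin (log2 fold change -2.34, SE 0.48, limma adjusted p = 0.00321). F3, the tissue factor of blood clotting, fell by 1.05 on the log2 scale (adjusted p = 0.00518). Between the cream groups none of the 7 was called by limma. Of the 7, 4 had an unadjusted p under 0.05 and none an adjusted p under 0.05. The share of all tested genes with an unadjusted p under 0.05 is not reported here, so the former count cannot be set against it. The interferon receptor genes Ifngr1, Ifngr2 and Ifnar1 had log2 fold changes of -0.53, 0.16 and 0.04 in IMQ + NS against control and of -0.29, -0.19 and -0.14 in IMQ + BZLF against IMQ + NS, none of them called. The median of the list was -0.42, -0.19 and -0.78 in the 3 comparisons.

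Il22, the ligand that shares IL-22Rα1, was too low to be tested. It was listed at 0.195, 0.336, 0.0177 and 0.320 FPKM in IMQ + NS skin, and at 0 in 3 of 4 samples of each other group, with 0.0730 in control replicate 3 and 0.0723 in IMQ + BZLF replicate 3. The groups overlapped, with an exact permutation p = 0.0571 against each. Iltifb, annotated as a near-identical copy of Il22, was listed at 0 outside IMQ + NS skin and at 0, 0.329, 0 and 0.0898 within it. Whether these BALB/c mice carry that copy was not examined. Reads of Il22 can be assigned to either of these annotated genes, so the values of both are uncertain.

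Of the 7 JAK, STAT and SOCS genes that carry the signal, none was called by limma in any comparison. In IMQ + NS against control, IMQ + BZLF against IMQ + NS and IMQ + BZLF against control, 3, 3 and 4 had an unadjusted p under 0.05. How many of all tested genes did so is not reported here. An adjusted p under 0.05 was reached by 2, 3 and 4 of the 7, and by 8569, 986 and 8098 of all 15288 tested genes. The medians of the 7 genes were -0.05, -0.24 and -0.51. Stat3, the main transcription factor of these receptors, had 34.1 FPKM ± 3.83 (SD, n = 4) in control skin, 43.7 ± 4.50 with saline and 28.0 ± 4.86 with BZLF, with log2 fold changes of 0.36 (adjusted p = 0.0191) and -0.65 (adjusted p = 0.0172) in IMQ + NS against control and between the cream groups. Socs3, a feedback inhibitor that STAT3 induces, had log2 fold changes of -0.05 (adjusted p = 0.833) and -0.89 (adjusted p = 0.0241). For the kinases Jak1, Jak2 and Tyk2 the log2 fold change in IMQ + BZLF against IMQ + NS was -0.43, -0.14 and -0.14, and for Socs1, another feedback inhibitor, it was -0.24.

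Cytokines known to induce IL-20 subfamily genes in keratinocytes or myeloid cells formed the next list, of 12 genes with 11 tested. In IMQ + NS against control 7 were called higher and none lower, with a median of 2.07, where 11.4% of all tested genes were called higher. Between the cream groups 7 were called lower after BZLF and none higher, with a median of -1.93, where 2.20% of all tested genes were called lower. Against control, 3 were called higher and 2 lower in IMQ + BZLF skin. Il1b, an alarm cytokine of myeloid cells, averaged 5.67 FPKM in control skin, 28.5 with saline and 2.07 with BZLF (log2 fold change 2.07 and -3.53, limma adjusted p = 0.00267 and 0.00348). The IL-36 genes of keratinocytes, Il1f6, Il1f8 and Il1f9, were called higher in the first comparison (6.28, 3.19 and 2.46) and lower in the second (-3.49, -1.44 and -2.31). Il17a, which encodes a T cell cytokine, was listed at 0 in all control and IMQ + BZLF samples and at 0.573, 0.402, 1.08 and 0.809 FPKM in IMQ + NS skin. Il17f had a mean of 0.00990, 0.782 and 0.00964 FPKM in the 3 groups.

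Of 19 genes known to be raised in keratinocytes by IL-20 subfamily cytokines or IL-22, 15 were called higher and 1 lower in IMQ + NS against control, and 14 were called lower and none higher in IMQ + BZLF against IMQ + NS. The medians were 4.50 and -3.19. Among all tested genes, 11.4% were called higher and 11.0% lower in the first comparison, and 0.321% and 2.20% in the second. The calprotectin genes S100a8 and S100a9, which neutrophils also express strongly, averaged 14.7 and 15.6 FPKM in control skin, 3010 and 2909 with saline and 45.8 and 20.6 with BZLF. Defb3, a beta-defensin, had 0.316, 191 and 0.338 FPKM in the 3 groups (log2 fold change 8.72 and -9.04, limma adjusted p = 1.69e-06 and 0.000432). The hyperproliferation keratins Krt6a and Krt16 had log2 fold changes of 5.51 and 7.53, and then of -2.39 and -4.95. The acute phase gene Saa3 changed by 6.89 and -4.28. Mmp3, a matrix protease named after its values had been seen, was the member called lower in IMQ + NS skin (-1.50, adjusted p = 0.00254). Against control, 8 of the 19 were called higher and 2 lower in IMQ + BZLF skin.

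Of 6 genes known to be lowered by these cytokines in cultured epidermis, 4 were called higher and 1 lower in IMQ + NS against control, with a median of 2.10, so most members moved opposite to the name of the list. Among all tested genes, 11.4% were called higher and 11.0% lower in that comparison. Krt1, an early differentiation keratin, had 232 FPKM ± 94.0 (SD, n = 4) in control and 1152 ± 328 in IMQ + NS skin (log2 fold change 2.37, limma adjusted p = 0.00048), and Klk7, a desquamation protease, rose by 2.16. Lor, a cornified envelope protein, fell by 1.03 on the log2 scale (adjusted p = 0.0422), and the log2 fold change of Krt10 was 0.22 (adjusted p = 0.634). Between the cream groups none of the 6 was called by limma, 3 had an unadjusted p under 0.05, and the median was -0.38. The share of all tested genes at that unadjusted limit is not reported here. An adjusted p under 0.05 was reached by 1 of the 6, and by 986 of all 15288 tested genes. Against control, 4 were called higher and none lower in IMQ + BZLF skin. The 6 keratinocyte markers, which include Krt1 and Krt10, summed to 1849 to 2965 FPKM in control skin, 4803 to 7614 with saline and 2168 to 3715 with BZLF, and the part of epidermal share in these values was not tested.

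Of 12 genes that IL-10 is known to raise in myeloid cells, 2 were called higher and 3 lower in IMQ + NS against control, with a median of 0.29. Among all tested genes, 11.4% were called higher and 11.0% lower in that comparison. Between the cream groups 1 was called lower after BZLF and none higher, with a median of -0.23, where 2.20% of all tested genes were called lower. The gene called was Bcl3, a nuclear inhibitor of NF-kappa B, which fell by 1.07 on the log2 scale (limma adjusted p = 0.0183). Against control, 2 were called higher and 3 lower in IMQ + BZLF skin, where 9.65% and 10.1% of all tested genes were. Dusp1, a phosphatase of MAP kinases, and Zfp36, which destabilises cytokine mRNA, had log2 fold changes of -3.27 and -1.39 in IMQ + NS against control and of -0.02 and -0.25 in IMQ + BZLF against IMQ + NS. For Hmox1, the heme-degrading enzyme, these were 0.51 and 0.19, and for the mannose receptor Mrc1 -0.55 and -0.20, none of them called.

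**Figure D4:**
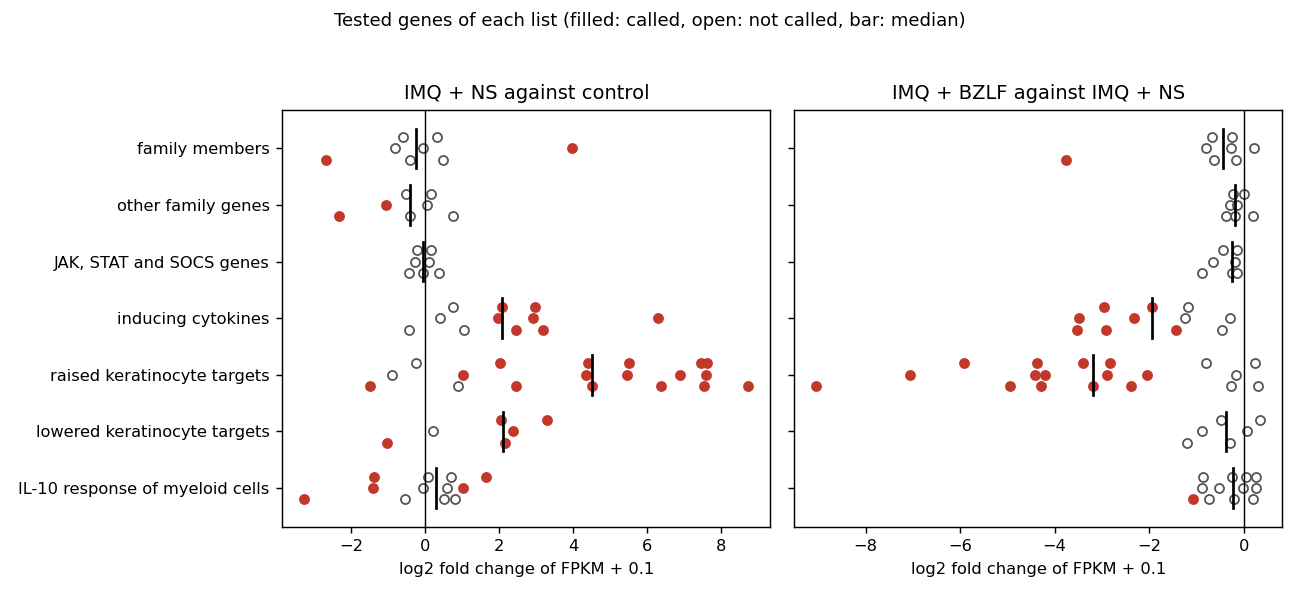
Log2 fold change of FPKM + 0.1 (horizontal axes) of the tested genes of each list, in IMQ + NS against control and in IMQ + BZLF against IMQ + NS, with filled points for called genes, open points for others and a bar at the median. The inducing cytokines and the raised keratinocyte targets have medians of 2.07 and 4.50 on the left and -1.93 and -3.19 on the right, while the JAK, STAT and SOCS genes have no filled point.

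The genes whose FPKM followed each called member most closely over the 12 samples were found by Pearson's r among genes with a mean of at least 1 FPKM. For Il19 they were Sbno2 (r = 0.985), Klf7 (0.974) and Vasp (0.969), and for Il20ra they included Osgep (0.992) and Agtpbp1 (0.989). Sbno2 averaged 8.29 FPKM in control skin, 13.6 with saline and 8.19 with BZLF. For Il10 they were Erap1 (0.947), Emc10 (0.945) and Atp6ap1 (0.943), and for Il20 Chodl (0.866), Prpf40b (0.83) and Trappc6a (0.825). The points are 12 samples of 3 groups, so a shared difference between groups is enough to give such values.

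With control replicate 2 and IMQ + BZLF replicate 2, the samples that held the seminal vesicle transcripts, both left out, 3 members were again called in IMQ + BZLF against control, but they were Il10, Il20ra and Il20rb (-1.23, limma adjusted p = 0.00328), and Il20 was not called (-0.84, adjusted p = 0.0842). This alternative was chosen after seeing the data. Of the remaining marker lists, T cell markers summed to 11.7 to 17.5 FPKM in control skin, 10.1 to 20.7 with saline and 5.11 to 11.6 with BZLF, and Langerhans and dendritic cell markers to 47.7 to 60.5, 74.6 to 93.4 and 72.1 to 87.7. Most of the latter sum was Epcam, which averaged 34.4, 72.5 and 68.5 FPKM, whereas Cd207 averaged 15.2, 8.11 and 7.52. Of the 6 Langerhans and dendritic cell markers, 1 was called higher and 1 lower in IMQ + NS against control, with a median log2 fold change of -0.32.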

How the data were processed

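Mouse back skin, 12 samples in 3 groups of 4, was sequenced as bulk RNA. The authors deposited FPKM per gene, 18505 genes in 12 columns, with sums of 444660 to 506622 per sample. The study's methods name Bowtie2, eXpress and DESeq2, whereas the submitters' processing notes name fastp, HISAT2, HTSeq, R 3.2.0 and mm10, and which of these made the table could not be settled. Of 16664 low values, 33.2% were whole-number multiples of a gene's smallest value to within 0.05, so read counts were not rebuilt. The number of fragments behind each value is therefore not known, although the study gives the amount of sequence per sample, which was similar in all, and values near 0 carry an unstated counting error.

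Genes with a mean of at least 0.1 FPKM over all samples (15288) were tested on log2(FPKM + 0.1) with limma 3.58.1 in R 4.3.3, with a variance trend, on the 8 samples of each comparison. The p-values were adjusted by Benjamini-Hochberg over all tested genes. A gene was called at an adjusted p under 0.05 and a log2 fold change beyond 1. Fold changes on this scale understate the change of low genes. Exact two-sided permutation tests of members used the same log2 values, in Python 3.11.15 with scipy 1.17.1. The fit was tested on simulated data.

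The members and lists were chosen with earlier results of these data known. Named were all members and signal genes, the 4 most abundant genes of each other list and up to 4 called genes with the largest change between the cream groups, the cluster's neighbours, and the 3 genes closest in pattern to each called member. Some genes that this rule names are not reported here. Listed symbols without a row were matched through RefSeq synonyms (4 genes). Alternatives covered the constant, the filter, scaling, pooling of groups, the trend, robust moderation, a replicate block, the call rule and each sample left out. Same-numbered samples are not stated to be paired. Coordinates and promoters are RefSeq's on GRCm38, the build of mm10.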

Additional observations from a re-analysis of the deposited data

Results flagged for a closer look

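In 27 groups of 4 samples (9 genes in 3 groups), 5 held a sample whose gap to the nearest other exceeded Dixon's critical share of the range. Chance alone gives this in about 1 of 20 groups, a rate that does not apply to the 3 in which the other samples were all listed at 0. Control replicate 3 stood above its group for Il10, at 0.912 FPKM. IMQ + BZLF replicate 4 stood above its group for Il19, at 0.511 FPKM, where the other samples were listed at 0. For Il24, control replicate 4 (0.0923 FPKM) and IMQ + BZLF replicate 4 (0.0219 FPKM) were likewise the only samples of their groups above 0. IMQ + BZLF replicate 1 stood below its group for Il10ra, at 2.89 FPKM.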

How the results depend on the processing

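Of 503 values of single members under the alternatives, 484 kept their direction and their side of the call. With the limit raised to a mean of 1 FPKM, members called numbered 1 in IMQ + NS against control, 0 in IMQ + BZLF against IMQ + NS and 1 in IMQ + BZLF against control, because Il10, Il19 and Il20 were then not tested. Without a fold limit, 2 members passed in IMQ + BZLF against IMQ + NS (Il19 and Il10ra), where 986 of all 15288 tested genes passed. With a constant of 1, 1 member was called in IMQ + BZLF against control, since Il10 (-0.47) and Il20 (-0.25) were then under the fold limit. With each sample left out in turn, the members called numbered 2 to 2, 1 to 1 and 2 to 3 in the 3 comparisons. For these fits and for the limit of 1 FPKM, most totals over all tested genes are not reported here. These member counts are therefore not set against the share of all genes called. The direction turned for Il19 in IMQ + BZLF against control with a constant of 0.01 (-0.46) and over fits without 1 sample (-0.45 to 0.42), for Il10rb in IMQ + NS against control over fits without 1 sample (-0.18 to 0.018), and for Il22ra1 in IMQ + BZLF against control without both samples that held seminal vesicle transcripts (-0.0041), none of them called. The cause was not tested.

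Over all tested genes, 3418, 385 and 3017 were called in the 3 comparisons, against 2191, 205 and 1844 with a constant of 1 and 8569, 986 and 8098 without a fold limit, and leaving out IMQ + NS replicate 3 gave 252 in IMQ + BZLF against IMQ + NS. Scaling to equal FPKM sums moved the median log2 fold change of all tested genes in IMQ + NS against control from 0.05 to -0.07, and no member changed its call under any scaling. With a replicate block the members called numbered 2, 1 and 3, as without it, and the totals over all tested genes with that block are not reported here. Same-numbered samples deviated from their group means with correlations of -0.15 to 0.26, and 4, 6 and 4 of 8 samples correlated best with their own number. Not every pair was above 0.1, so the numbers were not taken as pairs, although the pancreas and seminal vesicle transcripts went with them in control and IMQ + BZLF skin. Values below about 0.1 FPKM limit what can be said of Il24, of Il20 and of Il19 outside IMQ + NS skin.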
